A study of Homo sapiens with 5 samples.

Results

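The comparison set the array of week 8 against the array of week 6 in a differentiation course of human embryonic stem cells. It took these 2 of the 5 arrays of the series by their labels, and all genes whose chosen probe had a signal on either of them. H9 is an established human embryonic stem cell line, and the title of the series names its products corneal epithelial-like cells. One array each held undifferentiated H9 cells, called week 0 here, and cells harvested at weeks 2, 4, 6 and 8. The week 6 and week 8 samples carry no stated genetic change. Both were labelled as H9, described only as differentiating, and kept in E6 medium that was changed daily. Trizol-extracted total RNA, cleaned and DNase-treated, was copied into biotinylated cRNA for Illumina bead arrays, and the labels name no sorting of cells. The values are those of bulk RNA, in which fewer cells of a type and less RNA per cell cannot be told apart.

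Stratified squamous epithelia such as the cornea, the conjunctiva and the epidermis renew from basal cells that divide, leave the cell cycle and move up through the layers. Basal cells carry the keratin pair KRT5 and KRT14, and upper cells exchange it for keratins such as KRT1, KRT13 or, in the cornea, KRT3 and KRT12. The uppermost cells build the cornified envelope, a protein shell that transglutaminases cross-link under the plasma membrane, and release kallikrein proteases, protease inhibitors and antimicrobial peptides onto the surface.

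Each week had 1 array, which the submitters described as a non-replicate sample, so no spread between cultures could be had and no p-value is given. Levels are log2 signals after background correction and joint normalization of the 5 arrays. A gene was compared where the probe that stood for it was above background, at a detection p-value under 0.01, on at least 1 of the 2 arrays. Levels that differed by at least 1 on the log2 scale, which is 2-fold, made a gene higher or lower, and "rose" and "fell" are used below for called genes only. Where the dimmer array was below background, its level was set to the lowest level above background there (5.58 at week 6 and 5.46 at week 8) or to its own level if that was higher, and the fold is written as "at least". All such values describe these arrays and not the spread that repeated cultures would show.

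Of 11944 genes compared, 230 were higher at week 8, which is 1.93% of them, and 129 were lower, which is 1.08%. Among the 359 called genes (3.01%), 64.1% were higher. At 4-fold, 32 genes were higher and 5 lower. The same rule called 10.5% of the genes from week 4 to week 6, 12.7% from week 2 to week 4 and 19.9% from week 0 to week 2, steps that share arrays with each other. The median difference of all genes was -0.02 on the log2 scale, with the 5th and 95th percentiles at -0.63 and 0.65. Probes below background on both arrays differed with an SD of 0.25 (n = 28036 probes), and genes above background on both with SDs of 0.34 to 0.46 across 4 classes of level. The number of calls depends on the background correction. Without it 82 genes were higher and 30 lower, and in the authors' processed values 79 and 33. Of the 135 called genes named in the text, 66 kept their call without it. Lists below that held a call are therefore given with their counts without background correction as well. Bounds hold for the normalization used. Of the called genes, 39 of the higher and 6 of the lower had a bound for a fold.

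**Figure D1:**
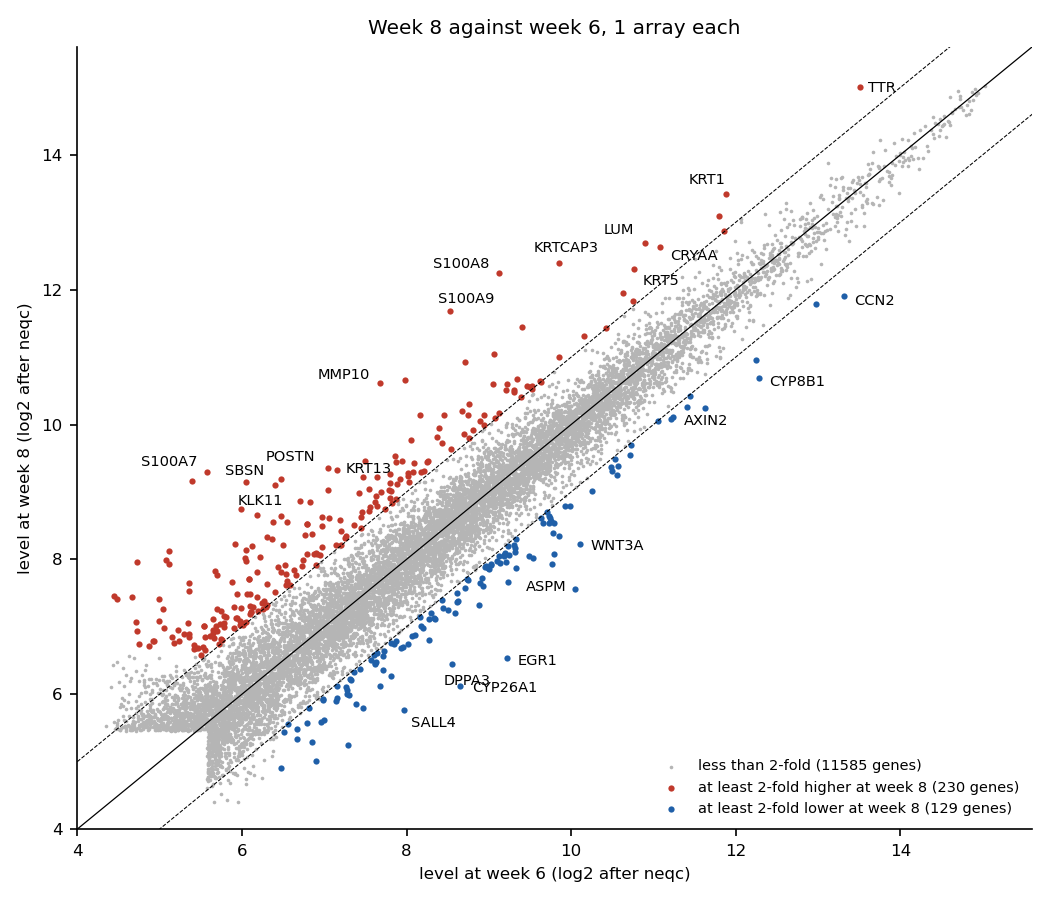
Level of each gene at week 6 (horizontal axis) and at week 8 (vertical axis), both log2 signals after neqc, 1 array each. The solid line marks equal levels and the dashed lines 2-fold. Red points are the 230 higher genes and blue points the 129 lower genes, and levels below background are drawn as measured, so some points past a dashed line are grey because their bound is under 2-fold.

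The 2 arrays lay on 1 chip and were close in brightness. At week 6, 17534 of 47317 probes were above background and the median signal was 135.4, and at week 8 the numbers were 18358 and 145.7. The ratio of the median signal above background to that below it was 2.62 at week 6 and 2.72 at week 8. Probes for ribosomal RNA moved with the week. Both 28S probes (RNA28SN5) fell, with log2 differences of -2.49 and -3.32, and the 18S probe (RNA18SN5) was at least 3.55-fold lower. Their part in the other differences was not tested. By genes whose level marks the donor, 1 of the 3 arrays outside the compared pair, that of week 2, did not match its labelled cell line. Neither array of the pair was flagged by these genes. The check cannot see a donor with like levels of them, or weeks exchanged within a cell line. Normalizing without that array kept the call of all 230 higher genes and of 128 of the 129 lower genes. Levels at weeks 0, 2 and 4 are given below as a course and include that array.

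A second probe of the same gene is the one repeated measurement within these arrays, although both probes read the same RNA. Of the higher genes, 43 had another probe above background, and 41 of these (95.3%) differed in the same direction, 17 of them by 2-fold. Of the lower genes, 27 had another probe, 22 (81.5%) differed in the same direction and 7 by 2-fold. Among genes that were not called, 65.0% of 2667 had the same direction on a second probe. A second probe above background on only 1 of the 2 arrays could count only as higher there, as for AQP1, KLK11 and ISM1 at week 8. The direction of such probes was fixed by the rule, so these shares are not a free measure of agreement. The 7 called genes whose other probe differed in the opposite direction were CLDN10, CYP26A1, DDR2, DLGAP5, FAM181B, PARPBP and PPP1R1B. For DDR2 the probes gave -1.15 and 0.56, for FAM181B -1.25 and 0.33, and for PPP1R1B 1.01 and -0.34.

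**Figure D2:**
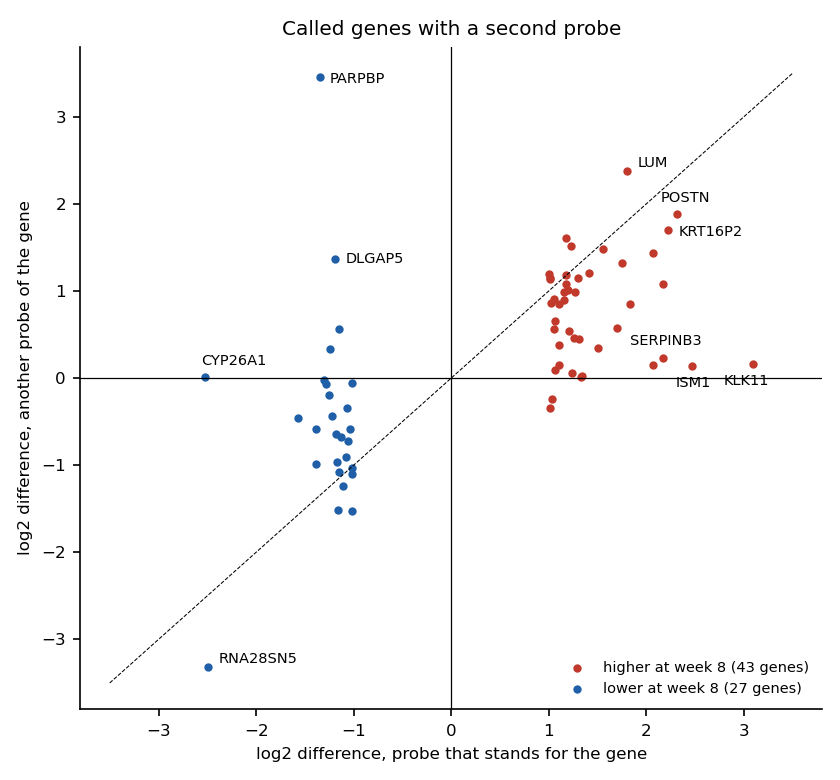
Log2 difference between week 8 and week 6 on the probe that stood for the gene (horizontal axis) and on another probe of it (vertical axis), for 43 higher and 27 lower genes, each point a gene. The dashed line marks equal differences. Most points share their sign on both axes, and PARPBP and DLGAP5 lie far on the other side of 0.

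The label was checked with the defining markers of corneal and basal epithelium. The corneal keratins KRT3 and KRT12 and the corneal crystallin enzyme ALDH3A1 were below background on all 5 arrays. The basal keratins KRT5, KRT14 and KRT15 and the eye and corneal transcription factor PAX6 were above background at weeks 6 and 8. The defining corneal keratins were thus not detected at either week, and the cells are called here by their week. Of 26 genes in a list of corneal epithelium, 14 were compared, with a median difference of 0.05. Of these 2 rose, or 1 without background correction, and none fell. LYPD2, a surface protein of the LY6 family, was below background on the arrays before week 6 and went from a level of 6.12 to 8.20, which is 4.21-fold. The water and glycerol channel AQP3 was likewise below background before week 6 and went from 5.64 to 6.95, which is 2.47-fold. PAX6 stood at 10.97 and 11.20, the retinaldehyde dehydrogenase ALDH1A1 at 12.26 and 11.95, and the transcription factor KLF4 at 9.56 and 9.52. None of these 3 genes was called. TGFBI, a matrix protein abundant in the cornea, was at 12.93 and 13.04.

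Keratins of stratified epithelium were among the genes that rose. Of 24 genes in the list, 12 were compared, 6 rose, none fell, and the median difference was 1.09 against -0.02 for all genes. Without background correction 5 rose and the median was 0.61. KRT13, the keratin of upper cells in non-cornifying epithelia, was below background at weeks 0, 2 and 4 and reached 7.16 at week 6 and 9.32 at week 8, a 4.47-fold rise. KRT15, a keratin of basal and limbal cells, was also below background on the earlier arrays and went from 7.05 to 9.03, 3.95-fold. KRT5 was at 4.86, 4.73, 8.13, 10.76 and 12.31 over the 5 weeks, rising 2.93-fold in the last step. Its partner KRT14 did not follow in that step, at 6.60, 9.84 and 9.78 at weeks 4, 6 and 8. KRT1, a keratin of suprabasal epidermis, was above background from week 0 and went from 10.30 at week 4 to 11.88 and 13.41, 2.89-fold higher at week 8 than at week 6. KRT80 rose 3.31-fold, from 8.05 to 9.78, and KRT23, below background at week 6, was at least 3.21-fold higher. KRT16, a keratin of activated and hyperproliferative epithelium, was at 13.75 and 14.22, a difference of 0.47, with 0.65 on its other probe. A probe named for the pseudogene KRT16P2, whose sequence is nearly that of KRT16, rose by 2.22 and a second by 1.70, so which of these transcripts those probes read is uncertain. KRT10, the partner of KRT1, was below background on both arrays. In the list of simple keratins 3 of 6 genes were compared. KRT8 was at least 2.42-fold higher and KRT222 was 2.25-fold higher, but neither was called without background correction. KRT18 was at 8.57 and 9.16, and KRT19 was below background on all 5 arrays. The KRT8 probe was below background on all 4 earlier arrays, undifferentiated cells included.

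**Figure D3:**
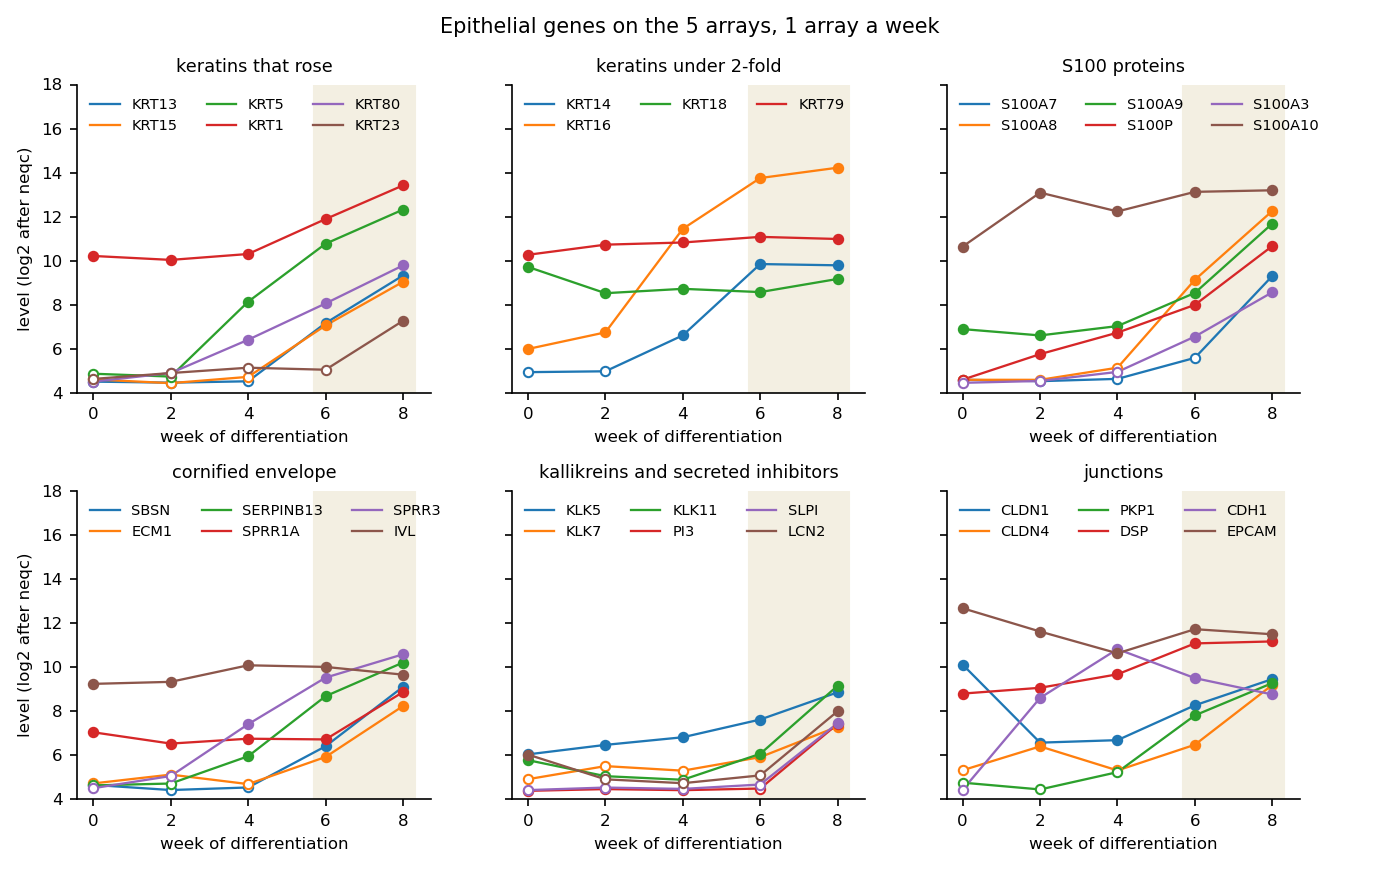
Levels (log2 after neqc) of epithelial genes on the arrays of weeks 0, 2, 4, 6 and 8, 1 array a week. Filled points were above background, open points were not, and the shaded band holds the compared arrays. KRT13, KRT15 and KRT5 climbed within the band while KRT14 stayed level, and S100A7, PI3, SLPI and LCN2 were below background at week 6 and above it at week 8.

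The cornified envelope list held 44 genes, of which 30 were compared. Of these 14 rose, none fell, 26 lay above 0, and the median difference was 0.86. Without background correction 6 rose and the median was 0.51. The summed linear level of the compared members was 20214 at week 6 and 26902 at week 8. Suprabasin (SBSN), a secreted protein of upper keratinocytes, was below background up to week 4 and went from 6.40 to 9.10, 6.50-fold. The retroviral-like protease ASPRV1, which processes filaggrin, was below background on every earlier array and reached 8.13, at least 5.86-fold higher. ECM1, an extracellular matrix protein of differentiating keratinocytes, went from 5.91 to 8.23, 4.97-fold. None of these 3 genes was above background at weeks 0, 2 or 4. Among the small proline-rich proteins, which are cross-linked into the envelope, SPRR1A rose 4.44-fold, SPRR3 2.08-fold and SPRR1B 2.06-fold, and SPRR2D was at least 2.57-fold higher. SPRR1A had been level at 7.04, 6.52, 6.74 and 6.71 from week 0 to week 6 before it reached 8.86. Of the serpins, intracellular inhibitors of proteases, SERPINB13 rose 2.88-fold and SERPINB5 2.49-fold. SERPINB3 rose 4.50-fold on one probe, and its other probe, below background at week 6, gave a bound of 0.23 on the log2 scale. SERPINB4 was at least 2.84-fold higher, but it is nearly identical to SERPINB3 and the probes may not separate them. The calcium-binding protein CALML5 was at least 2.80-fold higher, elafin (PI3), a secreted elastase inhibitor, at least 3.57-fold higher, and dermokine (DMKN) rose 2.35-fold.

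Other envelope genes did not move by 2-fold. Involucrin (IVL), an early envelope protein, was at 10.01 and 9.65, the cystatin CSTA at 11.59 and 12.11, LYPD3 at 8.90 and 9.52, and the annexin ANXA1 at 13.62 and 13.71. The probes of IVL and CSTA were already at 9.24 and 11.09 in undifferentiated cells. LYPD3 was at 5.78 there and ANXA1 below background. Filaggrin (FLG), loricrin (LORICRIN), the late envelope proteins LCE3D and LCE3E, and KRTDAP were among the 11 members with a probe that were below background on both arrays. The 14 members that rose therefore did not include these proteins of the final cornified layer, which were not detected. SERPINB7, a serpin outside the list that was singled out after its values were seen, rose 2.93-fold, with 1.48 on its other probe.

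The kallikreins KLK5, KLK7 and KLK11, serine proteases that cut the links between surface cells so that these can be shed, were the 3 of 10 listed kallikreins above background. All 3 rose. KLK11 went from 6.05 to 9.15, 8.54-fold, after being below background at weeks 2 and 4. Its other probe was below background at week 6 and just above it at week 8, with a bound of 0.16. Without background correction the difference of KLK11 was 1.95 on the log2 scale, and it alone of the 3 kallikreins was called. KLK5 stood higher on each array than on the one before, at 6.03, 6.46, 6.81, 7.62 and 8.85, and was 2.36-fold higher in the last step. KLK7 was above background at weeks 6 and 8 alone and rose 2.61-fold.

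S100 proteins, small calcium-binding proteins of which several lie beside the envelope genes in the epidermal differentiation complex, held 3 of the 4 largest increases of the comparison. Of 16 genes, 13 were compared, 6 rose, none fell, and all 13 lay above 0 with a median of 0.87. Without background correction 5 rose and the median was 0.66. S100A8 and S100A9 form calprotectin, an antimicrobial complex that binds zinc and manganese. S100A8 was below background until week 4 and went from 9.13 to 12.25, with deposited signals of 606.6 and 5508.6, an 8.75-fold rise. S100A9 was at 6.88, 6.60, 7.02, 8.53 and 11.68, with deposited signals of 446.4 and 3630.6 in the last step, an 8.87-fold rise. The 2 subunits thus rose by nearly the same factor. Psoriasin (S100A7), an antibacterial protein of the epithelial surface, was below background on every earlier array and reached 9.30, at least 13.2-fold higher in this normalization. Without background correction the log2 difference of S100A7 was 2.24, which is a smaller fold than this bound. S100A7A, a near copy, was at least 1.64-fold higher and was not called. S100P rose 6.38-fold, from 7.99 to 10.66, S100A3, a protein of the hair cuticle, 4.04-fold, and S100A4 2.08-fold with 0.90 on its other probe. Members already bright at week 6 moved less, with S100A10 at 13.12 and 13.19, S100A6 at 11.50 and 12.19 and S100A11 at 10.77 and 11.35.

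The human beta-defensin 3 probes named for DEFB103A and DEFB103B, near-identical gene copies that the probes may not separate, were at least 5.19-fold and 4.45-fold higher. RNASE7, an antimicrobial ribonuclease of the skin, was below background on every earlier array and reached 7.46, at least 3.69-fold higher. Of 10 compared mucins and secreted proteins 3 rose and none fell, and 2 rose without background correction. Lipocalin 2 (LCN2), which withholds iron carriers from bacteria, was at least 5.33-fold higher after a level of 6.02 at week 0, the leukocyte protease inhibitor SLPI at least 3.66-fold higher, and AGR2, a disulfide isomerase of secretory cells, 3.24-fold higher with 0.57 on its other probe. The membrane mucins of the ocular surface did not move by 2-fold: MUC16 was at 8.93 on both arrays, MUC1 at 8.52 and 9.07, and MUC15 at 6.61 and 7.24. DEFB103A, DEFB103B and RNASE7 stood in no list, and the last 2 were singled out after their values were seen.

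Promoter sequences are shown for genes with large differences in 3 lists, to set the envelope and S100 genes beside the dividing-cell genes described below. They are the 250 bases before the start site in RefSeq annotation of GRCh38.p14, read 5′ to 3′ on the strand of the gene, with matches to any of 4 motifs in capitals. The motifs, searched on both strands, were TGANTCA (bound by AP-1), the CCAAT box, TTTGAA (the cell cycle homology region, CHR) and TATAAA (the TATA box). Of 22917 matches over all promoters, 432 overlapped the match before. For the envelope:
SBSN, chr19:35528312-35528561, minus strand: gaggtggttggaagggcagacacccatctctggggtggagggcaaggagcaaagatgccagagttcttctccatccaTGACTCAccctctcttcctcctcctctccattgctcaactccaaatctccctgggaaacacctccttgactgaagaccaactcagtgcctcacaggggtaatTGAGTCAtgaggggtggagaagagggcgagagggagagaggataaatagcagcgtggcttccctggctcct
ECM1, chr1:150507859-150508108, plus strand: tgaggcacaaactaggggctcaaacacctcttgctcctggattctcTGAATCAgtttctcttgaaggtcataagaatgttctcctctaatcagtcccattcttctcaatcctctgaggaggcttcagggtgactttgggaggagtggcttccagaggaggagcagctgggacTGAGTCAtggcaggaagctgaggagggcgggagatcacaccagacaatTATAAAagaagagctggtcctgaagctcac
ASPRV1, chr2:70086274-70086523, minus strand: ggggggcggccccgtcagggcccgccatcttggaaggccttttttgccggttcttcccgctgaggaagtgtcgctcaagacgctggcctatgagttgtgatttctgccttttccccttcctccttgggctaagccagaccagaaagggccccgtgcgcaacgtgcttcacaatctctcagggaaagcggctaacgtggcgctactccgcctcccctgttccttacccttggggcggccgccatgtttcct
For the S100 proteins:
S100A7, chr1:153460652-153460901, minus strand: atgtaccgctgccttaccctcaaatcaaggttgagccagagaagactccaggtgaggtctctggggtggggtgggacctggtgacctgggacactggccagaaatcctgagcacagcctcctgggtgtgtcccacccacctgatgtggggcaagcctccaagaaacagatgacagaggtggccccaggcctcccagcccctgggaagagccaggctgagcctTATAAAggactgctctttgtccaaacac
S100A9, chr1:153357604-153357853, plus strand: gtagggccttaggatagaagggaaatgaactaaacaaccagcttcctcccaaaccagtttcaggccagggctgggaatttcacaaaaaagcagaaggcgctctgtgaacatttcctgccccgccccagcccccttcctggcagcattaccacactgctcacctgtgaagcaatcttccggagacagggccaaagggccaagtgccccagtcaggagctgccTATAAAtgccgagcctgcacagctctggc
For mitosis:
ASPM, chr1:197146670-197146919, minus strand: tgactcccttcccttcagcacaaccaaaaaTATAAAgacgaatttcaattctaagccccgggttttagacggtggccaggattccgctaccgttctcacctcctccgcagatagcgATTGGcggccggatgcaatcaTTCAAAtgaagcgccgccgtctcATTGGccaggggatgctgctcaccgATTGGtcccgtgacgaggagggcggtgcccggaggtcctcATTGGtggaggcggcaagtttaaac
CDC20, chr1:43358731-43358980, plus strand: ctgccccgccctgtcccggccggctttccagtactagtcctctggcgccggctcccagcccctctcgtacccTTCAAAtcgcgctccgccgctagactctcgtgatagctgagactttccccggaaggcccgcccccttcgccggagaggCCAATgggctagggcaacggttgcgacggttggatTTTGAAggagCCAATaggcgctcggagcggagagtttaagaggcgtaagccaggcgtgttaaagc
KIF23, chr15:69414099-69414348, plus strand: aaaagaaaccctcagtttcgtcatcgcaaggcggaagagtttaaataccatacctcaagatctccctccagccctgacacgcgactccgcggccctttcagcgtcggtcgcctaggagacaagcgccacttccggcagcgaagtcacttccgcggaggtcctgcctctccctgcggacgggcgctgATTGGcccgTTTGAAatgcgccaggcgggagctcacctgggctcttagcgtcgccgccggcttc
SBSN held 2 AP-1 matches, beginning at -173 and -71 from the start, and ECM1 held 2, beginning at -204 and -78, and a TATA box at -30, while ASPRV1 held no match to any of the 4 motifs. S100A7 and S100A9 held a TATA box, at -28 and -29, and no AP-1 match. CDC20 and KIF23 both held CCAAT and CHR matches, CDC20 2 of each and KIF23 1 of each, and neither TATA nor AP-1. ASPM held 4 CCAAT matches, 1 CHR match and a TATA match at -220, and no AP-1 match. Over the compared members of the envelope list with a promoter entry, 11 of 24 (45.8%) held the AP-1 motif, against 6.60% of 27305 promoters. Over those of the mitosis list, 29 of 37 (78.4%) held CCAAT and 21 (56.8%) held CHR, against 33.0% and 13.6% of all promoters, and none held AP-1. Of the S100 promoters 1 of 13 held AP-1 and 4 held TATAAA. A match is a description of letters in this window and not a site shown to be used.

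The lists of tight junctions, desmosomes and hemidesmosomes held few called genes by count. In each of them the called share was above the 3.01% of all genes, in the desmosome list through 1 gene. Of 20 compared genes of tight junctions and polarity 3 rose, no member fell, and the median was 0.17, with 1 rise left without background correction. Claudin 4 (CLDN4), a barrier-forming strand protein, was at 6.47 and 9.19, a 6.57-fold rise. CLDN1, the main claudin of the epidermis, went from 8.26 to 9.45, 2.28-fold, and CLDN10 rose 2.04-fold on one probe with -0.24 on the other. Both had stood higher in undifferentiated cells than at week 8, at 10.11 and 8.04. The cell adhesion gene EPCAM was at 11.72 and 11.49. E-cadherin (CDH1) was at 9.50 and 8.75, a difference of -0.74. Of 15 desmosome genes, plakophilin 1 (PKP1), the plaque protein of upper layers, alone rose, from 7.80 to 9.27, which is 2.76-fold, while desmoplakin (DSP) was at 11.07 and 11.16. Of 16 genes of hemidesmosomes and basement membrane, the anchoring fibril collagen COL7A1 rose 2.28-fold and the type IV chain COL4A5 fell 2.51-fold. Neither was called without background correction. Limbal and basal markers held 2 rises among 15 genes, KRT5 and KRT15, with a median of -0.06. PKP1, KRT5 and KRT15 kept their calls without background correction. Of 17 transcription factors of surface ectoderm, PITX1 rose 2.15-fold and TFAP2B fell 2.38-fold, and the median was -0.30. Both stayed under 2-fold without background correction. TFAP2A was at 12.04 and 11.69, TFAP2C at 9.71 and 9.41, and ZNF750, a factor of keratinocyte differentiation, at 9.83 and 9.41.

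Of the lists, mitosis held the most genes that fell. Of 51 mitosis genes 44 were compared, 12 fell, none rose, 43 lay below 0, and the median was -0.73. Without background correction 1 of the 44 was called lower, none higher, and the median was -0.50, with CCNB1 at -0.95 and KIF23 at -0.86. Their summed linear level was 34518 at week 6 and 22772 at week 8. Cyclin B1 (CCNB1), which drives entry into mitosis, was at 10.54, 10.27, 9.80, 9.32 and 8.12 over the 5 weeks, lower on each array than on the one before, and fell 2.30-fold in the last step. The spindle pole protein ASPM was at 10.39, 10.47, 9.95, 9.33 and 7.88, 2.73-fold lower in the last step. The midbody kinesin KIF23 fell 2.39-fold, the spindle assembly factor TPX2 2.28-fold, the checkpoint kinase TTK 2.20-fold, and survivin (BIRC5) 2.12-fold. The remaining called members were KIF20A, CENPE, CCNA2, AURKA, CDC20 and DLGAP5. The levels of these genes at week 8 were the lowest of the 5 arrays, with CDC20 as an exception. CDC20, an activator of the anaphase-promoting complex, was below background at weeks 0, 2 and 4, stood at 7.82 at week 6 and at 6.26 at week 8, a 2.94-fold fall, so its probe did not follow the other mitosis genes on the earlier arrays. For DLGAP5 the probes disagreed, with -1.19 on the one and 1.37 on the other. AURKA and CENPE had a second probe that fell with the first, by 1.03 and 1.24. The proliferation marker MKI67 was dim on this array, at 5.59 at week 6 and below background at week 8, and was not called. PTTG1 was at 11.71 and 11.28, and CKS1B at 11.34 and 10.84.

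Of 39 DNA replication genes compared, 3 fell, none rose, 38 lay below 0, and the median was -0.37. Without background correction 1 fell and the median was -0.28. POLE2, a subunit of DNA polymerase epsilon, fell 2.42-fold, UHRF1, which guides maintenance methylation of DNA, 2.26-fold, and MCM4, a subunit of the replicative helicase, 2.25-fold with -0.96 on its other probe. MCM3 was at 11.57 and 10.96. Among 22 compared inhibitors of cyclin-dependent kinases and p53 targets 1 rose, also without background correction, and none fell. It was CDKN1A, which encodes the inhibitor p21, at 7.55, 11.08, 10.60, 11.80 and 13.10, a 2.47-fold rise with 0.45 on its other probe. SFN, an epithelial 14-3-3 protein, was at 9.67 and 10.21. The p53 targets TNFRSF10B, at 10.94 and 11.20, and ZMAT3, at 10.97 and 10.77, did not pass 2-fold.

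Genes that mark undifferentiated cells held 4 falls. Of 28 genes 15 were compared, 4 fell, or 3 without background correction, none rose, and the median was -0.36. SALL4, a zinc finger factor of stem and fetal cells, was at 11.26, 10.68, 10.35, 7.97 and 5.77, ending 4.62-fold under week 6. DPPA3, a factor of germ cells and early embryos, was at 13.23, 10.95, 10.07, 8.56 and 6.45, 4.31-fold lower in the last step. LIN28B, which blocks processing of the let-7 microRNAs, went from 9.79 to 8.07, 3.28-fold lower, and ALPL, tissue non-specific alkaline phosphatase, fell 2.59-fold. Each of the 4 stood lower at week 4 than at week 2, at week 6 than at week 4, and at week 8 than at week 6. LIN28A, the homolog of LIN28B, was at 13.11 in undifferentiated cells, 5.95 at week 6 and below background at week 8, with a bound of -0.50. POU5F1 and NANOG were already below background at week 6. SOX2 was at 11.17 and 11.19, and CD24 at 13.90 and 13.89.

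Genes of neural progenitors fell in 3 of 17 compared members, with no rise and a median of -0.34, and in 1 without background correction. The intermediate filament nestin (NES) was at 11.18, 9.19 and 8.10 at weeks 4, 6 and 8, 2.14-fold lower in the last step. SOX3 fell 2.36-fold and SP8 2.11-fold, both from a peak at week 4. ZIC2 was at 12.86 and 12.13, SOX11 at 12.02 and 11.58, and HES5 at 10.93 and 11.25. Neuron markers were not among the falls. TUBB3, the neuronal tubulin, was at 11.42 and 11.79, STMN2 at 10.69 and 10.96, and DCX at 9.68 and 9.77. Of 35 compared neuron genes 3 rose, or 1 without background correction, no member fell, the median was 0.23, and the summed level was 23808 and 28053. Those that rose were peripherin (PRPH) by 2.24-fold, the factor NEUROG2 by 2.04-fold and tau (MAPT) by 2.01-fold.

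**Figure D4:**
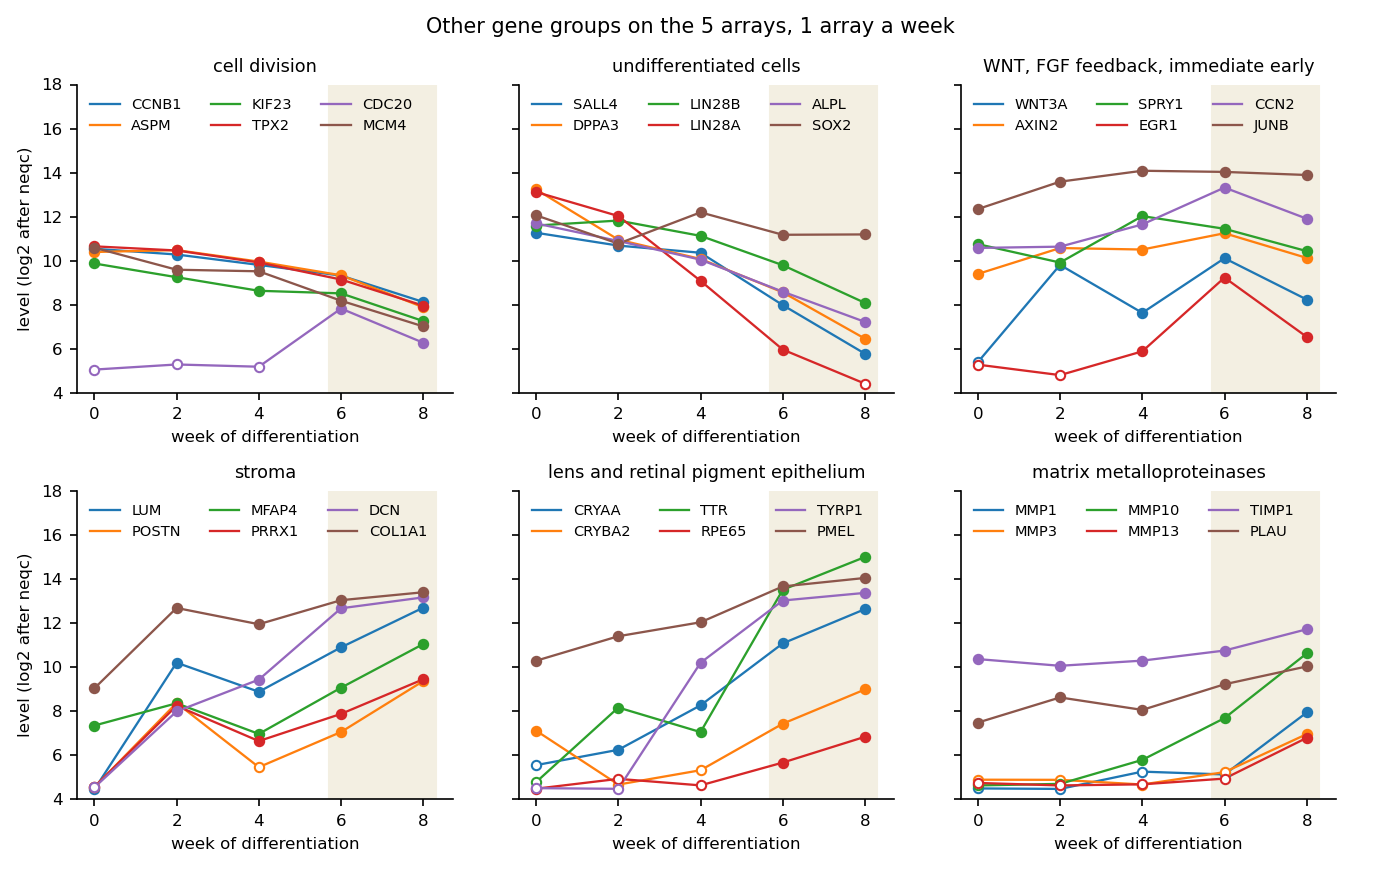
Levels (log2 after neqc) of genes of cell division, undifferentiated cells, signalling, stroma, lens and pigment epithelium, and metalloproteinases on the 5 arrays, 1 array a week. Filled points were above background, open points were not, and the shaded band holds the compared arrays. CCNB1 and SALL4 stood lower on each array than on the one before, and LIN28B did so from week 4 on. LUM, CRYAA and MMP10 rose within the band.

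Signalling lists differed in their share of called genes. Of the compared members 6.8% of WNT, 8.3% of FGF and EGF, 5.9% of retinoic acid and 15.8% of immediate early genes were called. The share of all genes was 3.01%. The BMP and TGF-beta list held 3.1%, and the Notch and IGF lists held no call. Of 44 compared WNT pathway genes 3 fell, or 2 without background correction, none rose, and the median was -0.13. The ligand WNT3A was at 9.80, 7.62, 10.11 and 8.23 at weeks 2, 4, 6 and 8, 3.67-fold lower in the last step. AXIN2, a feedback target of WNT signalling, went from 11.24 to 10.12, 2.18-fold lower, and the WNT amplifier RSPO1 fell 2.12-fold. WNT1 and WNT8B, ligands that were in no list, fell 3.20-fold and at least 2.02-fold, and lost their calls without background correction. WLS, which carries WNT ligands to the cell surface, was at 13.38 and 12.72. Among 24 genes of FGF and EGF signalling, the feedback inhibitors SPRY1 and SPRY2 fell 2.02-fold and 2.00-fold and none rose. Both stood at the threshold. With scaling to the 75th percentile SPRY1 was at -0.87 and SPRY2 at -0.89, and without background correction at -0.96 and -0.93, so that neither was called. Of 17 retinoic acid genes CYP26A1, which breaks retinoic acid down, was the one that fell, from 8.65 to 6.12, 5.75-fold. It was also the one called without background correction. Its other probe was at 7.63 and 7.64, a difference of 0.01, so the probes of CYP26A1 disagreed. Of 19 immediate early genes 3 fell, or 2 without background correction, none rose, and the median was -0.37. EGR1, a growth factor response gene, was at 9.23 at week 6, the highest of the 5 arrays, and at 6.53 at week 8, 6.47-fold lower. CCN2, a matricellular target of TGF-beta and YAP, fell 2.66-fold from 13.32, also its highest level of the course, and ATF3 fell 2.17-fold. JUNB was at 14.03 and 13.89 and IER2 at 11.45 and 11.03.

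Connective tissue genes were among those that rose. Of 33 stroma and fibroblast markers 27 were compared, 7 rose, none fell, and the median was 0.49, with summed levels of 55576 and 69668. Without background correction 4 rose. Lumican (LUM), a proteoglycan that spaces the collagen fibrils of the cornea, was below background at week 0, stood at 10.20, 8.88, 10.90 and 12.70 from week 2 on, and was 3.49-fold higher in the last step, and by 2.38 on the log2 scale on its other probe. Periostin (POSTN), a matricellular protein, went from 7.05 to 9.36, 4.97-fold, with 1.88 on its other probe. MFAP4, a microfibril protein, rose 3.96-fold, the collagen cross-linking enzyme LOX 3.07-fold, the mesenchymal factor PRRX1 2.98-fold and S100A4 2.08-fold, and osteoglycin (OGN) was at least 3.56-fold higher. Markers that were bright by week 6 moved less. Decorin (DCN) was at 12.67 and 13.17, vimentin (VIM) at 14.30 and 14.42, and SPARC at 12.71 and 12.96. Of 26 collagen chains 4 rose and 2 fell, against 1 and none without background correction. Those that rose were COL6A3 by 2.70-fold, COL7A1, COL6A2 by 2.16-fold with 0.15 on its other probe, and COL8A1 by 2.07-fold. Those that fell were COL4A5 and COL21A1, the latter 2.10-fold. COL1A1 was at 13.04 and 13.40, COL1A2 at 13.28 and 13.65, and COL3A1 at 11.05 and 10.71. The part of stromal cells in the other differences was not tested. Of 17 genes of the epithelial to mesenchymal transition none was called, with a median of -0.09.

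Of 18 compared metalloproteinases, plasminogen activators and inhibitors, 4 rose, or 2 without background correction, the median was 0.54 and no member fell. MMP10, stromelysin 2, an enzyme that migrating keratinocytes release, was at 5.78, 7.68 and 10.62 at weeks 4, 6 and 8, with deposited signals of 299.9 and 1850.3 in the last step, a 7.68-fold rise. The collagenases MMP1 and MMP13 and stromelysin 1 (MMP3) were below background on every earlier array and were at least 5.12-fold, 2.30-fold and 2.59-fold higher. The inhibitor TIMP1 was at 10.75 and 11.72, a difference of 0.97 that stayed just under the threshold, and TIMP3 was at 8.44 and 9.23.

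Lists of other eye tissues held called genes as well. Of the compared members 36.4% were called for lens, 17.6% for pigment epithelium and 18.8% for eye field and retina. The share of all genes was 3.01%, and the melanin list held no call. Of 11 compared lens genes 4 rose, no member fell, the median was 0.71, and the members had summed levels of 4579 and 9622. Without background correction 2 rose and the median was 0.29. Alpha A crystallin (CRYAA), the chaperone of lens fibres, was at 5.54, 6.24, 8.26, 11.08 and 12.63, 2.94-fold higher in the last step. CRYBA2 rose 2.94-fold, CRYBA4 2.30-fold and CRYAB 2.14-fold, and CRYGS was at 8.22 and 9.04. CRYBA1, a defining lens marker, was below background on both arrays, as were 10 other members of the list. Of 17 genes of retinal pigment epithelium 3 rose, or 2 without background correction, no member fell, and the median was 0.50. Transthyretin (TTR), a carrier of thyroid hormone and retinol made by pigment epithelium and choroid plexus, rose from a level of 13.51, with deposited signals of 9912.7 and 35139.9, by 2.81-fold after normalization, and made up most of the list's summed level of 22775 and 46220. The visual cycle isomerase RPE65 rose 2.25-fold to a level of 6.83, and SERPINF1, a secreted factor of pigment epithelium, rose 2.22-fold. None of 16 compared melanin genes was called. TYRP1 was at 13.02 and 13.37, PMEL at 13.66 and 14.05, TYR at 9.78 and 10.12 and MITF at 7.90 and 8.86. Of 16 eye field and retina genes 3 rose and none fell, RAX by 2.86-fold and ATOH7 by 2.95-fold, while POU4F2, a factor of retinal ganglion cells, was at least 3.85-fold higher. None of the 16 was called without background correction. The part of lens, pigment and neural cells in the other differences was not tested.

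**Figure D5:**
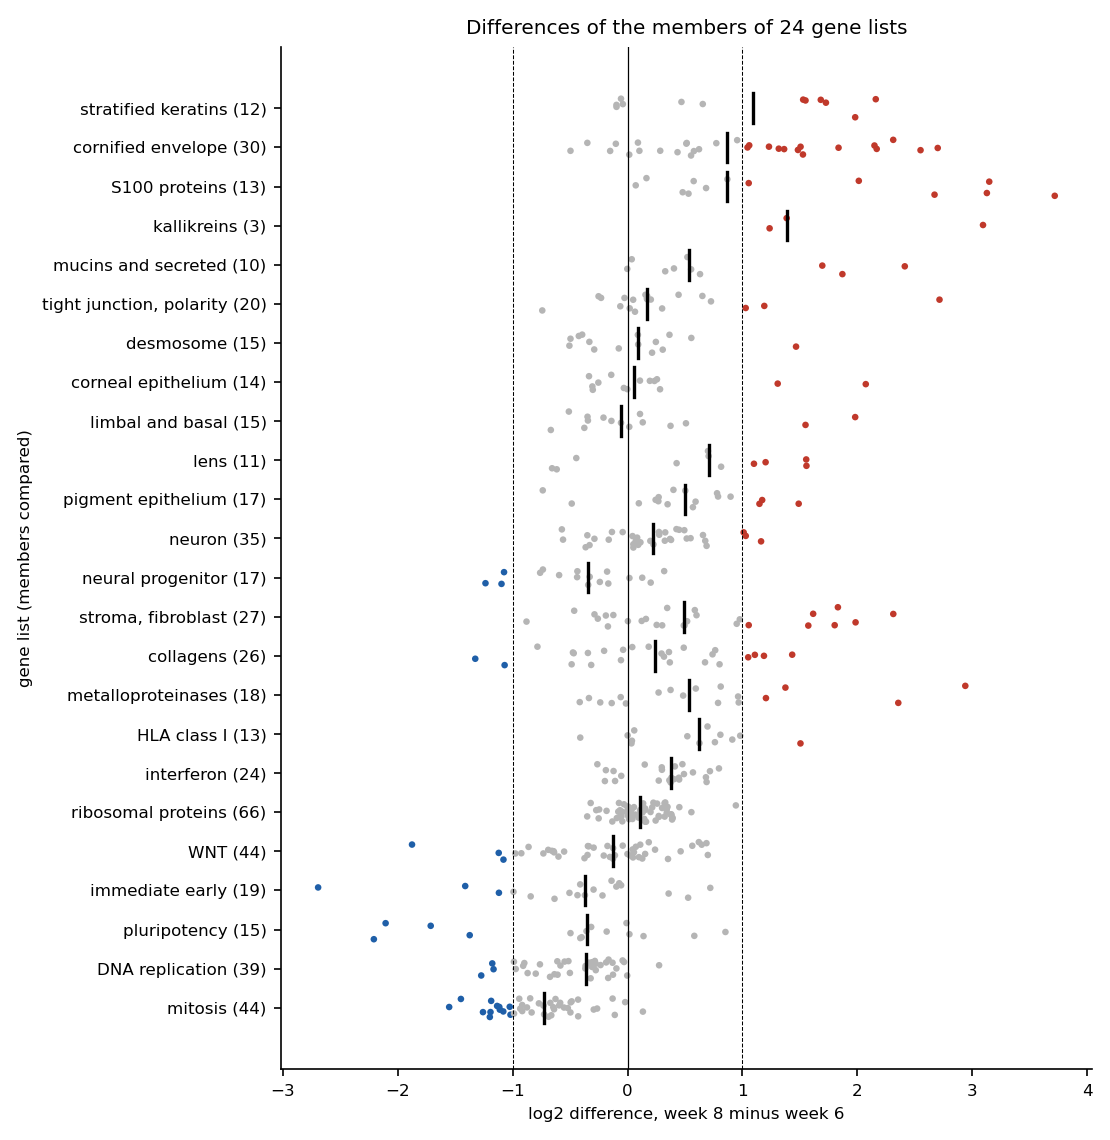
Log2 difference between week 8 and week 6 of each compared member of selected gene lists (horizontal axis), with the number of members in brackets and the median as a black bar. Red and blue points passed 2-fold, at the dashed lines. The medians run from 1.39 for 3 kallikreins to -0.73 for 44 mitosis genes.

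Several lists held no call. Over all genes compared 3.01% were called. At that share short lists can hold none, as can those of melanin and the epithelial to mesenchymal transition above. None of 17 muscle, 10 endoderm and liver, or 11 endothelial, blood and immune genes passed 2-fold, and the defining markers PECAM1 and PTPRC were below background on both arrays. No gene was called among 66 ribosomal proteins (median 0.11), 60 respiratory chain subunits (median 0.09), 24 interferon genes (median 0.38), 9 HLA class II genes or 13 housekeeping genes. ACTB was at 14.33 and 14.14 and GAPDH at 13.40 and 13.02. Of 13 compared HLA class I and peptide loading genes 12 lay above 0 with a median of 0.63. The median was 0.27 without background correction, and 1 gene was called either way. HLA-F was the one that rose, 2.84-fold, with 0.34 on its other probe, and B2M, the light chain of class I, was at 11.37 and 11.99.

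The called genes were placed in the whole course. Of the 230 higher genes, 197 had their highest level of the 5 arrays at week 8, against 21.2% of all genes compared. Of the same 230, 69 (30.0%) were below background on every array before week 6, against 6.25% of all genes. Without the array that did not match its label these counts were 210 and 84, against 24.6% and 7.92% of all genes. For 26 of the 230, and for 356 of all 11944, week 8 was the first array above background. The 26 included S100A7, ASPRV1, DEFB103A, RNASE7, SLPI, PI3, KRT23, MMP1, MMP3 and MMP13. Of the 129 lower genes, 81 had their lowest level at week 8, against 25.4% of all genes, and 36 had their highest level at week 6, against 13.1%, and without that array the counts were 85 and 47. The call itself favours these extremes, since a gene called higher cannot be lowest at week 8, and the shares are given as a description. EGR1, CCN2 and AXIN2 were among those highest at week 6, and CCNB1, SALL4 and LIN28B among those lowest at week 8.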

How the data were processed

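Expression was measured on 1 Illumina bead array a week. The main values were the deposited mean bead intensity of each probe, which per the file headers and the values were neither background subtracted nor normalized. Each has a deposited detection value, a fraction between 0 and 1, which the file headers do not define. It reaches 1 at high signals and was therefore taken as 1 minus a detection p-value. A deposited table of intensity values processed by the authors, whose 5 columns share their quartiles, served as an alternative. Its centring is unstated. The scanner software was not given in the sources used here. No per-sample column was left unmapped.

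The 5 arrays were background corrected, given an offset of 16 and quantile normalized together with neqc (limma 3.58.1, R 4.3.3), and tabulated with Python 3.11.15, pandas 2.3.3, numpy 2.4.6 and matplotlib 3.10.9. An offset shrinks the differences of dim probes. Of 47317 probes, 30110 had 1 gene symbol in the platform annotation, updated through RefSeq where possible, 8 had several and 17199 none, and 20045 genes were named. The probe with the highest mean level over the 5 arrays, among those above background (detection p-value under 0.01) on at least 1 of them, stood for its gene. A gene was then compared if that probe was above background on at least 1 of the compared arrays. A gene given as below background was therefore so on the chosen probe, and other probes of it may differ. For the check of labels 94 genes were left out of every table. The number of arrays limits the precision, and no test between weeks was possible.

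Genes were named by size (the 12 largest differences each way and the 8 largest bounds each way), by list (up to 6 called and up to 4 bright uncalled members of each of 61 lists) and from a set of markers. Genes named beyond this, such as MDK, MGP, RNASE7, the genes with opposed probes and the smaller envelope and mitosis calls, were singled out with their values in view. The comparison, the lists and the markers were chosen with earlier results of these data known. Alternatives changed the background correction, scaling, offset, detection limit, filter, choice of probe, fold and arrays. The one without the array that did not match its label was chosen after seeing the data.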

Additional observations from a re-analysis of the deposited data

How the results depend on the processing

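No paired analysis was possible because each week has 1 array. Of the 135 genes named in the text as called, all kept their call without the array that did not match its label and at a detection limit of 0.05, 129 with weeks 6 and 8 normalized alone, 123 with scaling to the 75th percentile, and 110 with an offset of 50, which gave 146 higher and 76 lower genes. Without background correction 66 kept it, with 82 higher and 30 lower genes, and in the authors' processed values 66, with 79 and 33. The others stayed under 2-fold in the same direction. The share of higher genes among those called was then 73.2% and 70.5%. With the mean of a gene's probes 122 kept the call, 11 stayed under 2-fold, and DLGAP5 and PARPBP reversed, to 0.0886 and 1.05 on the log2 scale. Among genes above background on all 5 arrays, 55 were higher and 98 lower, a share of 35.9%, a filter that removes genes silent early in the course. Of the 135 named, 50 passed it, and the lens list was left with 1 gene, at -0.62. At 4-fold 32 were higher and 5 lower (86.5%), and at 1.5-fold 760.0 and 745 (50.5%). With 1 array a week, spread between cultures is unknown, and signals near background give bounds only.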

Other observations

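Some called genes are described here that the comparisons above did not take up. GZMM, a granzyme protease of lymphocytes, was below background at weeks 0, 4 and 6, stood at 10.29 at week 2 and 9.17 at week 8, with a bound of 3.59 for its rise on the log2 scale in the last step. The week 2 array is the one that did not match its labelled cell line. The leukocyte marker PTPRC was below background on both compared arrays. BHLHE22, a neural transcription factor, rose by 2.76 on the log2 scale. KRTCAP3, a keratinocyte-associated membrane protein, went from a level of 9.85 to 12.40. The matrix inhibitor of calcification MGP rose by 2.17, and by 1.08 on its other probe. The secreted factor ISM1 rose by 2.47, and its other probe, below background at week 6, gave a bound of 0.14. The growth factor CSF1, which sustains macrophages, rose by 2.09.

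Channels and pumps for water and salt rose in 4 of 22 compared members, with no fall and a median of 0.44, and in 1 without background correction. The water channel AQP1 was at least 4.19-fold higher, with 0.15 on its other probe, the sodium channel subunit SCNN1A rose by 1.66, and the chloride channel CFTR was at least 2.33-fold higher. SCNN1A was at 10.64 at week 0 and 9.53 at week 8. Of 31 metallothionein and oxidative stress genes 3 rose and no member fell, and 1 rose without background correction. The aldo-keto reductase AKR1C3 rose by 1.72 and the glutathione peroxidase GPX2 by 1.25, and the metallothionein MT1G was at least 2.42-fold higher. GPX2 was at 8.40 at week 0 and 7.99 at week 8. In the cartilage and bone list CNMD, a cartilage glycoprotein, rose by 2.06, and by 1.43 on its other probe. It was at 10.13 at week 0 and 7.76 at week 8, and kept its call without background correction.

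Among the lower genes, SLN, a regulator of the muscle calcium pump, fell by 1.83 on the log2 scale. CYP8B1, a sterol hydroxylase of bile acid synthesis, went from 12.28 to 10.69. TFRC, the transferrin receptor, fell by 1.15 and HAMP, the iron hormone hepcidin, by 1.20. The heparin-binding factor MDK fell by 1.28 on one probe and differed by -0.06 on the other. For PARPBP one probe fell by 1.35 while the other, below background at week 6 with a deposited signal of 137.0, reached 704.6 at week 8, a bound of 3.46 in the opposite direction. Which of its transcripts each probe reads was not tested.

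Probes without a gene name in the annotation used here were counted apart. Of 3953 above background at week 6 or week 8, 47 were higher and 30 lower by 2-fold, which is 1.95%.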
